A study of Mus musculus with 72 samples.

Results

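Mice that had been fear conditioned and were dissected 12 h later, in the dark phase, were compared with mice dissected 4 h after the same training, in the middle of the light phase. The comparison took the 9 arrays labelled as fear conditioned at 12 h (FC12) and the 9 labelled as fear conditioned at 4 h (FC4), chosen by their titles alone, so 18 of the 72 arrays of the study. All animals were C57BL/6J males of 2 months, without transgene, and 1 array held the hippocampal RNA of 1 mouse. Training in contextual fear conditioning, in which an animal comes to associate a box with a mild electric shock to the feet (here 2 s at 1.5 mA), took place 3 h after lights on (zeitgeber time, ZT, 3) under 12 h of light per day. FC12 mice were thus dissected at ZT 15 and FC4 mice at ZT 7, and in trained mice alone the hours since training and the time of day cannot be told apart. The question was which of the differences also hold in other animals that were handled but not trained, the 9 CC12 mice and the 9 CC4 mice, dissected at the same times of day. No mouse is shared between the trained and the untrained comparison, although all 72 arrays were normalised together.

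Many transcripts of the brain rise and fall with the day. Part of this comes from the cellular clock, in which CLOCK or NPAS2 pairs with ARNTL to switch on the Per and Cry genes, whose proteins then repress that pair, and in which the Bhlhe, Nr1d and Ror genes and the PAR-domain factors Tef and Hlf form further loops. Other transcripts follow what changes with activity and feeding, such as body temperature, glucocorticoid hormone and the load of newly made protein in the endoplasmic reticulum (ER). Mice are active in the dark, and the hippocampus, a region needed to form contextual memories, takes part in these daily changes.

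The values are log2 signals of 35556 probe sets (groups of short probes that report a transcript), from which the first principal component (PC1), the axis along which arrays differed most, was subtracted; every per-mouse value below is such a log2 value. A probe set was called when its Benjamini-Hochberg adjusted p over all probe sets was under 0.1 in limma, two-sided. Array medians lay between 5.82 and 5.88. Of the 3 leading components, which held 17.4%, 7.22% and 3.81% of the variance, only PC3 differed between the groups, with scores of −5.51 ± 2.00 in FC12 mice and 5.72 ± 4.42 in FC4 mice (SD, n = 9 each, two-sided exact permutation p = 8.23e-05). On PC1 and PC2 the exact permutation p was 0.865 and 0.463. Markers of the tissue were present, with mean levels of 8.15 to 8.40 in FC12 and 8.11 to 8.41 in FC4 mice over 11 dentate granule cell markers, above the array medians. Since the tissue was bulk, fewer cells of a type and less RNA per cell cannot be told apart. FC12 mouse 2 lay far from its group on PC1, with a score of −61.06, and without it 1432 probe sets were called in place of 1500.

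A second mouse of the trained groups stood apart on the probe sets that differed between FC12 and FC4. FC4 mouse 3 lay nearer to the FC12 mean than to the mean of the other FC4 mice on 608 of the 1500 probe sets called below (40.5%). For the other FC4 mice this share was 11.1% to 23.4%, and for FC12 mice the share nearer to the FC4 mean was 10.9% to 25.7%. Without FC4 mouse 3, 1890 probe sets were called. This mouse was picked because it lay toward FC12, so leaving it out tends to widen the contrast. Calls gained without it, here and below, are thus no added support for those genes. The label of FC4 mouse 3 was kept in all that follows, and whether the label is right was not tested. The upper or lower ends of FC4 ranges that this mouse sets carry that doubt.

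At 12 h 1500 probe sets differed from 4 h, 4.22% of those tested, of which 892 were higher in FC12 (2.51%) and 608 lower (1.71%). They included 1079 genes with a symbol of their own. At an unadjusted p under 0.05 there were 5545 (15.6%). With an equal variance test and local false discovery rates, as fitted here, 0 were called in trained and 633 in untrained mice. The changes were small, with a median fold of 1.12 among the called, against a median standard error of 0.0496 on the log2 scale over all probe sets. In 149 probe sets (0.419%) the FC12 and FC4 mice did not overlap at all. In untrained mice the same contrast gave 1782 calls (5.01%), 903 higher in CC12 (2.54%) and 879 lower (2.47%), and 233 probe sets without overlap (0.655%).

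Nearly every time-of-day difference of the untrained mice pointed the same way in the trained mice. Of the 1782 probe sets called in CC12 against CC4, 1704 (95.6%) had the same sign in FC12 against FC4, and 674 were also called there, 419 higher and 255 lower. These 674 are 44.9% of the calls in trained mice and 37.8% of the calls in untrained mice, set against 4.22% of all probe sets called in trained mice. There were 0 probe sets called in opposite directions. Of the probe sets called in neither comparison, 60.5% had the same sign. Of the falls fewer were called in trained mice, since 29% of the 879 probe sets lower in CC12 were called lower in FC12, while 46.4% of the 903 higher in CC12 were called higher in FC12. Across the 1782 probe sets the log2 fold changes of the 2 comparisons had a Pearson r of 0.896, and r was 0.725 within those higher and 0.617 within those lower in CC12. Probe sets are not independent replicates, and both comparisons share the normalisation, so this is a description.

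**Figure D1:**
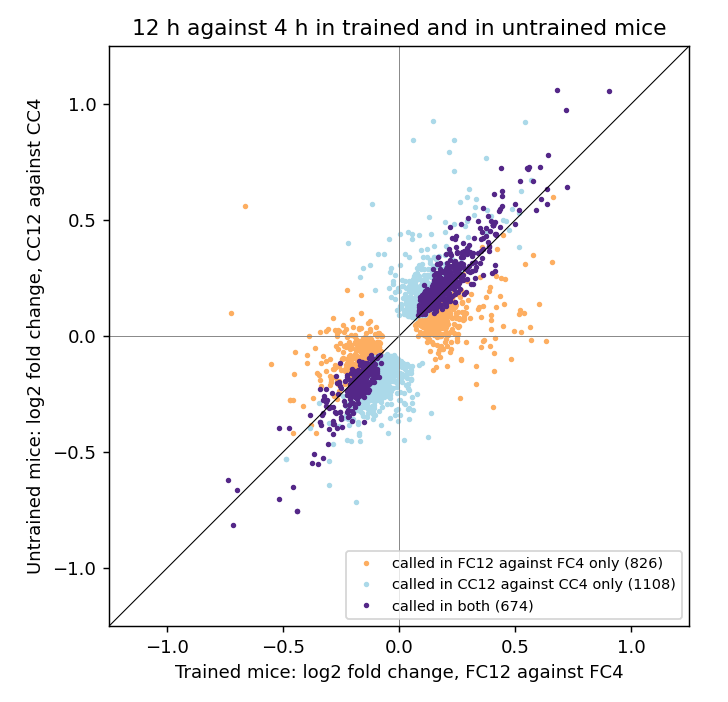
Log2 fold change of FC12 against FC4 in trained mice (horizontal axis) and of CC12 against CC4 in untrained mice (vertical axis) for each probe set called in at least 1 of the 2 comparisons, with the line of equal change. The 674 probe sets called in both all lie at the lower left or upper right, and none was called in opposite directions.

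The changes were smaller in trained than in untrained mice on the probe sets picked in untrained mice. Their median size was 0.12 in FC12 against FC4 along the direction seen in untrained mice, and 0.19 in CC12 against CC4, where they were chosen. Picked in trained mice instead, the median size was 0.17 in trained and 0.13 in untrained mice, so a set looked larger wherever it was chosen. Of the 674 called in both, 488 had a smaller change in trained mice.

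Each mouse was given a score that uses none of the trained mice to choose its probe sets, the mean deviation from the 72-array mean over the 1782 probe sets of the untrained comparison, signed so that a dark-phase level is positive. FC12 mice scored between 0.025 and 0.118 (median 0.087), against −0.074 to 0.025 (median −0.065) in FC4 mice. The highest FC4 mouse was mouse 3, at 0.025. The next highest FC4 mouse scored −0.050 and the lowest FC12 mouse, mouse 2, 0.025. The groups therefore met at a single value, set by the 2 mice that stood apart. The CC12 mice scored 0.066 to 0.144 and the CC4 mice −0.132 to −0.084, on the probe sets chosen in them. The remaining groups were dissected early in the light phase. Their medians were −0.047 in untrained mice, 0.007 at 30 min and −0.024 at 24 h after training, and 0.009 at 30 min after retrieval. Retrieval mice reached 0.070, so positive scores were not confined to the dark phase.

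**Figure D2:**
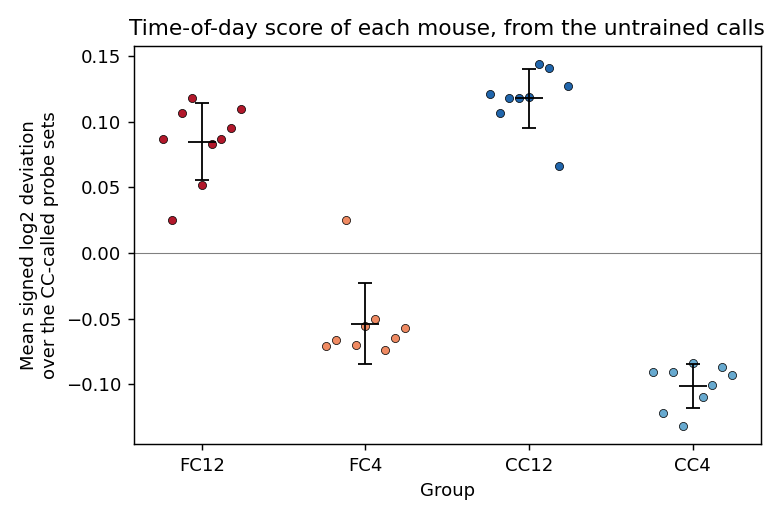
Mean signed log2 deviation (vertical axis) of each mouse over the 1782 probe sets called in CC12 against CC4, by group, with the mean and SD (n = 9 mice each). FC12 mice lie at or above 0.025, and 8 of 9 FC4 mice lie at or below −0.050, with FC4 mouse 3 at 0.025.

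Among clock genes Per2, Per3 and Cry1 were higher and Arntl lower at 12 h. Of 19 core clock genes on the array, 5 were called higher in FC12 and 2 lower, against 3.41% and 2.08% of all 18820 genes tested with 1 probe set each. Of these 7, 6 were called in the same direction in untrained mice, where 7 were higher and 1 lower, against 3.42% and 3.27% of all genes. The list's median log2 fold change was 0.03 in trained and 0.09 in untrained mice, against 0.01 for all genes in trained mice.

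Per3, a period protein of the repressing arm, had 8.15 to 8.32 (median 8.23) in FC12 mice, against 7.88 to 8.13 (median 7.98) in FC4 mice. It was 1.19-fold higher in FC12 (log2 fold change 0.25 ± 0.03, SE, adjusted p = 4.56e-04), and every FC12 mouse lay above every FC4 mouse. Per2, its paralogue, had 7.48 to 7.78 (median 7.72) in FC12 mice and 7.32 to 7.59 (median 7.47) in FC4 mice, and the groups overlapped only through FC12 mouse 2, at 7.48. Its log2 fold change was 0.24 ± 0.04 in trained mice (adjusted p = 0.0036) and 0.43 ± 0.04 in untrained mice (adjusted p = 7.12e-06). Cry1, a cryptochrome that represses CLOCK and ARNTL, lay between 6.13 and 6.36 (median 6.27) in FC12 mice and between 5.97 and 6.13 (median 6.03) in FC4 mice, and rose by 0.21 ± 0.04 (adjusted p = 0.00321). Tef, a PAR-domain activator, was at 8.45 to 8.58 in FC12 mice and at 8.31 to 8.41 in FC4 mice, with no overlap. Bhlhe41, a repressor that binds the same sites as CLOCK, overlapped in part, with 7.81 to 7.98 in FC12 mice and 7.51 to 7.85 in FC4 mice.

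Arntl, the partner of CLOCK, fell to 7.20 to 7.42 (median 7.30) in FC12 mice, against 7.39 to 7.61 (median 7.52) in FC4 mice, a log2 fold change of −0.22 ± 0.04 (adjusted p = 0.00244) that was −0.24 in untrained mice. Npas2, which can stand in for CLOCK, was lower by −0.20 ± 0.05 in FC12 (adjusted p = 0.0281) and was the only called clock gene not called in untrained mice, where its log2 fold change was −0.05 (adjusted p = 0.695). The test of the difference between the 2 time effects gave an unadjusted p of 0.02 for Npas2, adjusted p = 0.999. Hlf and Nr1d2, which were called higher in CC12 (0.09 and 0.14), had log2 fold changes of 0.10 each in trained mice and missed the threshold (adjusted p = 0.14 and 0.116). For Clock itself the log2 fold change was −0.02, for Cry2 −0.06, for Rora −0.04, for Rorb −0.09, for Csnk1d 0.05 and for Csnk1e 0.00, none of them called. Per1 (0.03), Bhlhe40 (0.02), Ciart (−0.01) and Nfil3 (0.09) were not called either.

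Sequence just before the start site was read for the called clock genes that hold a clock motif there, to show the motif in its place. The E-box searched was CACGTG, which reads the same on both strands and is the site that CLOCK and ARNTL bind, and the D-box was TTATGTAA or TTACGTAA on either strand, the site of Tef and Hlf. The windows ran from before to shortly after each RefSeq start site (GRCm38.p6), and 16 of the 19 clock genes had a window. An E-box stood in 5 of these 16 (31.2%), Per1, Cry1, Tef, Ciart and Bhlhe41, of which Per1 and Ciart were not called. It stood in 9.57% of the windows of all genes tested, in 10.1% of the genes higher and in 11.7% of those lower in FC12. A D-box stood in Per3 alone of the clock genes, with 2 matches, and in 1.11% of all genes tested. Motifs are in capitals.
Cry1, chr10:85185089-85185134, minus strand: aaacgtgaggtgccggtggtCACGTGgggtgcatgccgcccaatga
Tef, chr15:81802526-81802571, plus strand: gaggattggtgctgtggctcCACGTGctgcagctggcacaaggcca
Bhlhe41, chr6:145865548-145865593, minus strand: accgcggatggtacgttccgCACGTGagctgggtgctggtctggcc
Per3, chr4:151044796-151044890, minus strand: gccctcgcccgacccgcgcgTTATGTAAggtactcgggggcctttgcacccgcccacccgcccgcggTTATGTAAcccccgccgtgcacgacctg

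Genes that fold and check proteins in the ER were among the rises at 12 h. Of 22 such genes 11 were called higher in FC12 and 0 lower, against 3.41% of all genes higher, and 9 of the 11 were also called higher in CC12. The list's median log2 fold change was 0.08 in trained and 0.12 in untrained mice. Leaving out FC4 mouse 3 gave 12 called members, and leaving out FC12 mouse 2 gave 11.

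Sdf2l1, an ER protein that works with the chaperone BiP, had the largest change, with 8.24 to 8.69 (median 8.50) in FC12 mice, against 7.78 to 8.21 (median 7.88) in FC4 mice. It was 1.49-fold higher (log2 fold change 0.58 ± 0.06, adjusted p = 5.07e-05), the groups did not overlap, and the highest FC4 value was that of mouse 3. Hspa5, which encodes BiP itself, had 10.29 to 10.52 (median 10.43) in FC12 mice and 9.94 to 10.31 (median 10.04) in FC4 mice. FC4 mouse 3, at 10.31, was again the one that closed the gap. The log2 fold change of Hspa5 was 0.38 ± 0.04 (adjusted p = 1.55e-04), and 0.41 ± 0.03 without FC4 mouse 3. Creld2, a secreted ER stress protein, lay between 7.67 and 7.95 (median 7.84) in FC12 mice, above all FC4 mice at 7.30 to 7.58 (median 7.39). Dnajc3, a co-chaperone of BiP, lay between 8.03 and 8.17 (median 8.09) in FC12 mice, also above all FC4 mice at 7.72 to 7.99 (median 7.80). Xbp1, the transcription factor of the unfolded protein response, had 9.80 to 9.96 (median 9.88) in FC12 mice and 9.56 to 9.75 (median 9.65) in FC4 mice, without overlap.

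The other called members were Manf (log2 fold change 0.28), Pdia6 (0.24), Herpud1 (0.23), Atf4 (0.14), Syvn1 (0.14) and Calr (0.09), which include a secreted survival factor, a disulfide isomerase, parts of the machinery that removes misfolded proteins, a stress transcription factor and a calcium-binding chaperone. Calr was called in 10 and Syvn1 in 3 of the 18 fits that left out 1 mouse (adjusted p up to 0.119 and 0.156). Atf4 and Syvn1 were the 2 not called in untrained mice, with log2 fold changes there of 0.09 (adjusted p = 0.235) and 0.13 (adjusted p = 0.115). Not every chaperone of the ER moved, since Hsp90b1 (0.04), Canx (−0.04) and Hyou1 (0.03) were not called in either comparison.

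The ER stress element, the motif by which ATF6 and XBP1 act on such genes, is shown where it was found in called members. The motif searched was CCAAT, then 9 bases of any kind, then CCACG, on both strands. Of 14749 tested genes with a window, 20 held it (0.136%), and 6 of these 20 were called higher in FC12 and 0 lower, against 3.41% of all genes higher. All 6 belong to the ER list, in which 8 of 18 genes with a window hold the element. Of the 12 genes with the element outside the list 0 were called, and 4 of 10 list members without it were called higher. Hsp90b1 and Canx hold it and were not called. Other motifs were searched too, for lists described below. Among called members with a window, the glucocorticoid response element stood in 0 of 6 glucocorticoid-responsive genes. The sterol regulatory element stood in 0 of 6 called sterol genes and the heat shock element in 0 of 2 called heat shock genes. The cAMP response element stood in 2.98% of genes higher and 2.61% of genes lower in FC12, against 2.77% of all tested. A match is a description of letters and not of a bound site. The 6 stretches, read from RefSeq (GRCm38.p6) 5′ to 3′ on the gene's strand, have the ER stress element in capitals. In Creld2 and Calr it lies on the opposite strand.
Hspa5, chr2:34772005-34772063, plus strand: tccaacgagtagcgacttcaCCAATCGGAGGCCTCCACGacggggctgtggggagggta
Creld2, chr15:88819500-88819558, plus strand: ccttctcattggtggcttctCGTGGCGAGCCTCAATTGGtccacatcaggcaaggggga
Dnajc3, chr14:118937807-118937865, plus strand: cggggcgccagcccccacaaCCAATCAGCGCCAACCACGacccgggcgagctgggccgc
Pdia6, chr12:17266471-17266529, plus strand: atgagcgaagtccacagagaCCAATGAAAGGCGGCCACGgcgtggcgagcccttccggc
Syvn1, chr19:6046512-6046570, plus strand: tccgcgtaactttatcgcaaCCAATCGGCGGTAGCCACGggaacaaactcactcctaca
Calr, chr8:84847055-84847113, minus strand: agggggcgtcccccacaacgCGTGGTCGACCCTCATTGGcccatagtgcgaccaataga

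Of 15 chaperones of the cytosol and mitochondria 2 were called higher in FC12, against 3.41% of all genes, Dnajb1 (0.23 ± 0.04) and Dnajb4 (0.11 ± 0.03), both co-chaperones of HSP70. In CC12 5 were higher, against 3.42% of all genes. Hspb1, a small heat shock protein, had a log2 fold change of 0.20 in trained mice (adjusted p = 0.186) and 0.49 in untrained mice (adjusted p = 0.0114). It was called in 1 of the 18 fits that left out 1 mouse, that without FC4 mouse 3 (adjusted p = 0.0295, otherwise up to 0.29). Cirbp, an RNA-binding protein that cells make more of in mild cold, moved the other way. It had 8.31 to 8.63 (median 8.48) in FC12 mice, against 8.58 to 8.90 (median 8.79) in FC4 mice, a log2 fold change of −0.29 ± 0.05 (adjusted p = 0.0029), and −0.37 in untrained mice. Rbm3, the other cold-inducible gene listed, had 0.07 in trained mice and was not called in either comparison.

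**Figure D3:**
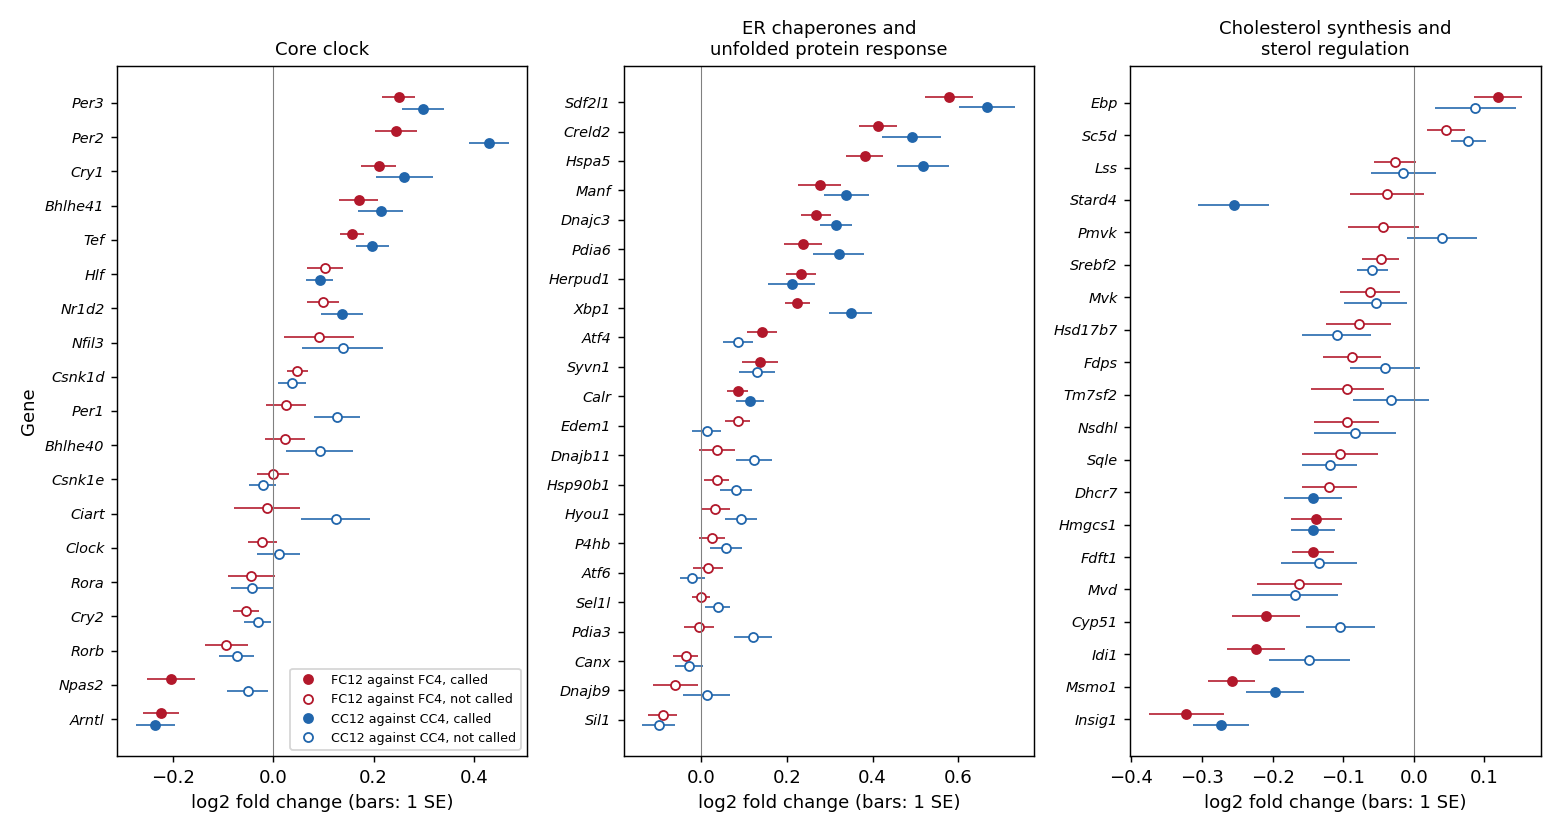
Log2 fold changes of the members of 3 gene lists, FC12 against FC4 (red) and CC12 against CC4 (blue), with bars of 1 SE and filled points for calls. Of the 22 genes of the ER list 11 were called higher in FC12 and 0 lower, of the 19 clock genes 5 were higher and 2 lower, and of the 20 cholesterol genes 1 was higher and 6 lower.

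Several genes of cholesterol synthesis were lower at 12 h. Of 20 genes of sterol synthesis and its control 6 were called lower in FC12 and 1 higher, against 2.08% and 3.41% of all genes, and the median log2 fold change was −0.09 in trained and −0.11 in untrained mice. Only 2 of the 20 had a positive log2 fold change in trained mice. In untrained mice 5 were lower, against 3.27% of all genes, and 3 genes were called lower in both. Insig1, which holds back the sterol sensor, had 8.67 to 9.08 (median 8.90) in FC12 mice and 9.01 to 9.36 (median 9.24) in FC4 mice, a log2 fold change of −0.32 ± 0.05 (adjusted p = 0.00285). Msmo1, an enzyme of the late pathway, had 8.85 to 9.02 (median 8.97) in FC12 mice, below all FC4 mice at 9.11 to 9.34 (median 9.20). The enzymes Idi1 (−0.22), Cyp51 (−0.21), Fdft1 (−0.14) and Hmgcs1 (−0.14) were the other falls. Of these, Idi1, Cyp51 and Fdft1 were not called in untrained mice, whereas Stard4, a sterol carrier, was lower in untrained mice (−0.25) and not called in trained mice (−0.04, adjusted p = 0.786). Ebp was the one member called higher (0.12 ± 0.03, adjusted p = 0.077), and it was called in 9 of the 18 fits that left out 1 mouse (adjusted p up to 0.133).

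Lipid-handling genes held the largest called fall and, with Plin4, one of the 15 largest called rises. Fabp7, the brain fatty acid-binding protein of astrocytes and neural progenitors, had 10.35 to 10.69 (median 10.50) in FC12 mice, against 11.14 to 11.32 (median 11.22) in FC4 mice. It was 1.67-fold lower in FC12 (log2 fold change −0.74 ± 0.04, adjusted p = 1.71e-08), and the groups were far apart, as they were in untrained mice (10.47 to 10.66 in CC12 and 11.06 to 11.29 in CC4). Fabp5, a related binder, was lower by −0.14 ± 0.03. Plin4, a coat protein of lipid droplets, had 5.63 to 6.25 (median 5.99) in FC12 mice and 4.97 to 5.74 (median 5.34) in FC4 mice, a log2 fold change of 0.61 ± 0.09 (adjusted p = 0.00186). Mfsd2a, a lipid transporter of the blood-brain barrier, lay between 9.33 and 9.48 (median 9.42) in FC12 mice, above all FC4 mice at 8.96 to 9.22 (median 9.01). Its log2 fold change was 0.36 ± 0.03 in trained and 0.55 ± 0.04 in untrained mice. Of 22 lipid-handling genes 3 were called higher and 2 lower, against 3.41% and 2.08% of all genes, and the others, among them the synthesis genes Fasn (−0.03) and Acaca (0.01), were not called. The third rise was Acot11, a thioesterase that releases fatty acids (0.16 ± 0.04).

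Plin4 and Mfsd2a also belong to a list of 27 genes that glucocorticoid hormone induces, of which 6 were called higher and 1 lower in FC12, against 3.41% and 2.08% of all genes, and 7 and 1 in CC12, against 3.42% and 3.27%. The other rises were Bcl6 (0.14), a repressor, Errfi1 (0.12), an inhibitor of EGF receptor signalling, Gpd1 (0.11), an enzyme of glycerol phosphate, and Sult1a1 (0.21), a sulfotransferase. Mt2, a metallothionein, was the fall (−0.11 ± 0.03, adjusted p = 0.0933), and was called in 6 of the 18 fits without 1 mouse (adjusted p up to 0.158). The classical targets Fkbp5 (0.13, adjusted p = 0.125) and Tsc22d3 (0.10, adjusted p = 0.396) missed the threshold in trained mice, and both were called higher in untrained mice (0.18 and 0.34). Fkbp5 was called in 1 of the 18 fits, that without FC4 mouse 3 (adjusted p = 0.0401, otherwise up to 0.211), and Sult1a1 in 4 (adjusted p up to 0.161).

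Of 32 genes induced by neuronal activity 3 were higher in FC12 and 2 lower, against 3.41% and 2.08% of all genes, and in untrained mice 7 were higher and 3 lower, against 3.42% and 3.27%. Without FC12 mouse 2, 5 were higher in FC12. Arc, a protein of active synapses that is transcribed within minutes of activity, was the most spread of them, with 7.45 to 8.57 (median 8.22) in FC12 mice, against 7.51 to 8.16 (median 7.70) in FC4 mice. FC12 mouse 2 had the lowest value of all 18, FC4 mouse 3 the highest of its group, and 5 of 9 FC12 mice exceeded every FC4 mouse. The log2 fold change was 0.44 ± 0.12 (adjusted p = 0.0683). It was called in 8 of the 18 fits that left out 1 mouse, with an adjusted p up to 0.119, and was 0.53 ± 0.10 without FC12 mouse 2 (adjusted p = 0.00693). In untrained mice the groups did not overlap, at 7.74 to 8.38 in CC12 and 7.39 to 7.67 in CC4 mice (0.72, adjusted p = 9.07e-06).

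Dusp6, a phosphatase of ERK, was higher at 8.15 to 8.57 (median 8.35) in FC12 mice, against 7.93 to 8.32 (median 8.09) in FC4 mice, with FC4 mouse 3 at the top of its group. Jun, a subunit of AP-1, was higher by 0.11 ± 0.02 (adjusted p = 0.0157). The falls were Ptgs2, the inducible cyclooxygenase, with 8.58 to 8.90 (median 8.75) in FC12 mice and 8.89 to 9.19 (median 9.02) in FC4 mice, and Nptx2, a pentraxin of excitatory synapses (−0.21 ± 0.05). Both falls were also called in untrained mice (−0.38 and −0.21). Fos (0.23, adjusted p = 0.313), Egr1 (0.00) and Npas4 (−0.12) were not called in either comparison, and Bdnf (−0.09) was called only in untrained mice (−0.23). Fos was called in 1 of the 18 fits that left out 1 mouse, that without FC12 mouse 2 (adjusted p = 0.0696, otherwise up to 0.441).

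**Figure D4:**
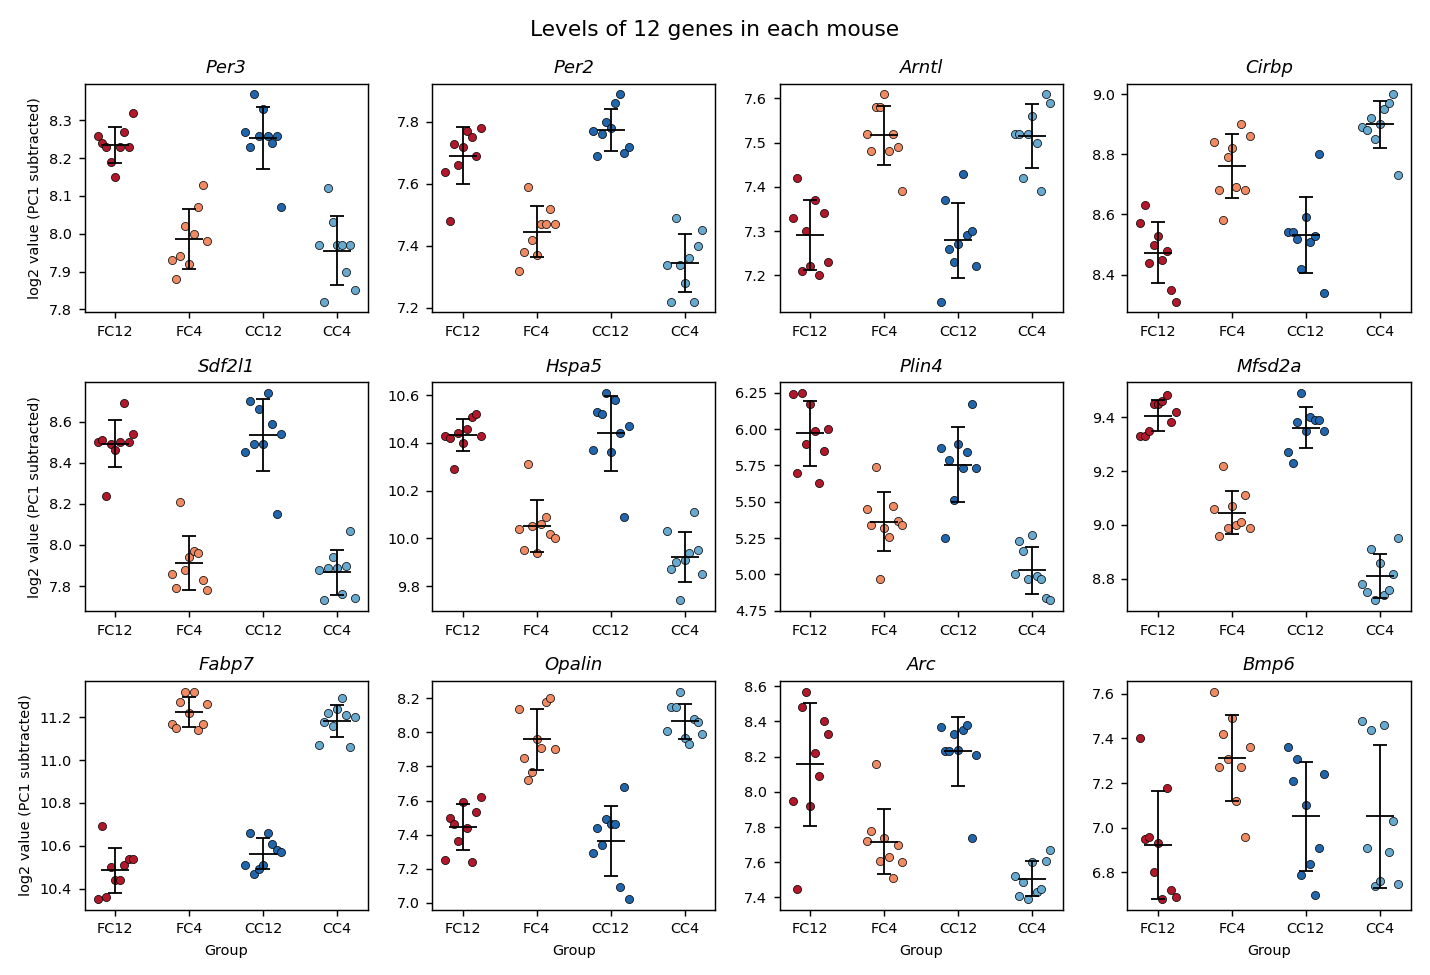
Log2 values of 12 genes in each mouse, with the mean and SD (n = 9 mice each), in the groups FC12, FC4, CC12 and CC4. Fabp7 separates 12 h from 4 h mice at both levels of training (10.35 to 10.69 in FC12, 11.14 to 11.32 in FC4), while Bmp6 was called in trained mice only (medians 6.93 in FC12 and 7.31 in FC4, 7.10 in CC12 and 6.91 in CC4).

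Among the 15 largest called rises was Snord14e, a box C/D RNA of the nucleolus that directs chemical modification of ribosomal RNA. It is encoded in an intron of the chaperone gene Hspa8. Snord14e had 7.62 to 8.68 (median 8.34) in FC12 mice, against 7.10 to 7.63 (median 7.35) in FC4 mice, 1.87-fold higher (0.90 ± 0.14, adjusted p = 0.0018), while Hspa8 itself had a log2 fold change of 0.00. Tm6sf2, a protein of lipid export, had 6.76 to 7.39 (median 7.14) in FC12 mice and 6.10 to 6.92 (median 6.34) in FC4 mice, a rise of 0.72 ± 0.11. Tnfrsf25, a death receptor of the TNF family, had 7.76 to 8.39 (median 8.20) in FC12 mice and 7.23 to 8.04 (median 7.49) in FC4 mice. Its highest FC4 value was mouse 3, and the log2 fold change was 0.64 ± 0.10. Banp, a nuclear DNA-binding protein, had 8.51 to 8.80 (median 8.66) in FC12 mice and 7.99 to 8.55 (median 8.12) in FC4 mice, and here too FC4 mouse 3 was the only one that reached the other group. Fmo2, a flavin monooxygenase, had 4.31 to 5.35 (median 4.73) in FC12 mice and 3.90 to 4.43 (median 4.14) in FC4 mice (0.68 ± 0.11). All 5 were called higher in untrained mice too, with log2 fold changes of 0.57 to 1.06.

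The other rises were Dnase1l2 (0.64), Erbb3 (0.46), Noxred1 (0.44), Crip3 (0.43), Zbtb40 (0.43), Cdh19 (0.42) and 1700031F05Rik (0.42), beside Plin4, Sdf2l1 and Arc. Erbb3, a neuregulin receptor of glia, was at 6.84 to 7.27 (median 7.09) in FC12 mice and 6.34 to 6.90 (median 6.62) in FC4 mice. In untrained mice its log2 fold change was 0.24, with an adjusted p of 0.1002, just past the threshold. 1700031F05Rik was the one rise with a weak counterpart in untrained mice (0.13, adjusted p = 0.705), and it was called in 7 of the 18 fits without 1 mouse (adjusted p up to 0.151).

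Behind Fabp7, the largest falls among called genes were Cstad and Opalin. Cstad had 6.31 to 6.87 (median 6.61) in FC12 mice, against 7.01 to 7.49 (median 7.32) in FC4 mice (−0.70 ± 0.07), and Opalin, a membrane protein of myelinating oligodendrocytes, had 7.24 to 7.62 (median 7.46) in FC12 mice and 7.72 to 8.20 (median 7.91) in FC4 mice (−0.52 ± 0.07). The groups did not overlap for either gene, nor for H1f2, a linker histone (7.27 to 7.49 in FC12 mice, 7.58 to 7.95 in FC4 mice), Pla2g4e, a phospholipase (5.24 to 5.61 in FC12 mice, 5.76 to 6.14 in FC4 mice), Car7, a carbonic anhydrase of neurons (7.38 to 7.60 in FC12 mice, 7.61 to 8.01 in FC4 mice), or S100a16, a calcium-binding protein (8.59 to 8.78 in FC12 mice, 8.80 to 9.04 in FC4 mice). All 6 were called lower in untrained mice, with log2 fold changes of −0.70 to −0.33. Bche (−0.33), a cholinesterase, 9430053O09Rik (−0.38), Oacyl (−0.35), Mir219a-2 (−0.37) and Mir551b (−0.34) also fell in both comparisons.

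The remaining falls, Bmp6, Inmt and Cmbl, were called in trained mice and not in untrained mice. Bmp6, a secreted bone morphogenetic protein, had 6.68 to 7.40 (median 6.93) in FC12 mice, against 6.96 to 7.61 (median 7.31) in FC4 mice (−0.39 ± 0.10, adjusted p = 0.0391), while CC12 mice had 6.70 to 7.36 and CC4 mice 6.74 to 7.48 (0.00, adjusted p = 0.999). The difference of the 2 time effects for Bmp6 was −0.39, with a 95% confidence interval of −0.72 to −0.06 (unadjusted p = 0.0231, adjusted p = 0.999). Inmt, an indolethylamine methyltransferase, had 4.71 to 5.11 (median 4.94) in FC12 mice and 5.00 to 5.53 (median 5.24) in FC4 mice, a log2 fold change of −0.34 ± 0.07. In untrained mice it was −0.19 (adjusted p = 0.58). Cmbl, a hydrolase, was at −0.34 ± 0.07 in trained and −0.12 in untrained mice (adjusted p = 0.485).

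Markers of the meninges had mostly negative fold changes beside these falls. Over 14 markers of meningeal fibroblasts, such as Slc6a13 (−0.57), Slc13a4 (−0.58), Fmod (−0.55), Igf2 (−0.39) and Dcn (−0.23), 13 had a negative log2 fold change in FC12 against FC4 and the median was −0.26, although 0 passed the threshold. FC4 mouse 8 had the lowest Igf2 and Dcn of its group (7.46 and 9.24), and without it Slc6a13, Slc13a4, Igf2 and Dcn were called lower (adjusted p = 0.067, 0.0623, 0.0977 and 0.0503). Each of these genes was called in only that 1 of the 18 fits that left out 1 mouse. Leaving out a mouse picked for low FC4 values widens a fall by itself, so these calls are no added support. In untrained mice 11 of the 14 were positive and the median was 0.06. The mean level of the 14 lay between 6.39 and 7.23 (median 6.64) in FC12 mice and between 6.37 and 7.43 (median 7.02) in FC4 mice, and 3 of the 14 had a mean below the array median. For 5 of the 14 the difference of the 2 time effects had an unadjusted p under 0.05. Dcn is also listed as a CA1 marker. Their part in the falls of Bmp6, Inmt, Cmbl and Vtn was not tested. Vtn, vitronectin of pericytes, was the only one of 10 mural cell markers called (−0.30 ± 0.07, adjusted p = 0.031), against 2.08% of all genes called lower. The list's median was −0.11 in trained and −0.09 in untrained mice.

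**Figure D5:**
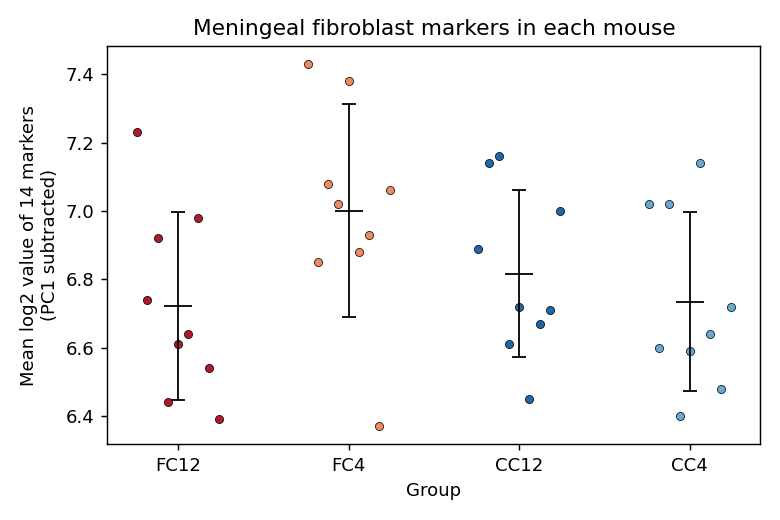
Mean log2 value of 14 meningeal fibroblast markers in each mouse, by group, with the mean and SD (n = 9 mice each). The median is 6.64 in FC12 and 7.02 in FC4 mice, and 6.72 in CC12 and 6.64 in CC4 mice, and the groups overlap.

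Calls in the other cell type lists are set against 3.41% of all genes called higher and 2.08% called lower in FC12. Of 16 endothelial markers 1 was higher, the transporter Slco1a4 (0.19 ± 0.04), and 2 were lower, the junction proteins Pecam1 (−0.23) and Cdh5 (−0.21), with a list median of 0.03. None of these 3 was called in untrained mice. Pecam1 lost its call without FC12 mouse 9 or FC4 mouse 1, 5 or 7 (adjusted p up to 0.105), and Cdh5 kept it in 5 of the 18 fits without 1 mouse (adjusted p up to 0.156). Of 14 astrocyte markers Fgfr3, a growth factor receptor, rose to 8.59 to 8.79 (median 8.68) in FC12 mice, above all FC4 mice at 8.41 to 8.56 (median 8.48). Aqp4, the water channel of astrocyte endfeet, fell to 9.15 to 9.29 (median 9.24) in FC12 mice, below all FC4 mice at 9.30 to 9.42 (median 9.38), and was not called in untrained mice (−0.06, adjusted p = 0.536). The astrocyte median was −0.02. Beside the fall of Opalin, the tight-junction gene Cldn11 was higher among 12 oligodendrocyte markers (0.16 ± 0.05, adjusted p = 0.0877). It was not called in untrained mice (0.07) and kept its call in 6 of the 18 fits that left out 1 mouse. Gpr17, a receptor of differentiating oligodendrocyte precursors, was the one called of 10 precursor markers (0.22 ± 0.05, and 0.27 in untrained mice).

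Of 11 dentate granule cell markers the transcription factor Prox1 was higher (0.18 ± 0.05) and the calcium buffer Calb1 lower (−0.14 ± 0.04). Over all genes 3.41% were called higher and 2.08% lower. Neither marker was called in untrained mice. Prox1 was called in 14 of the 18 fits without 1 mouse (adjusted p up to 0.106) and Calb1 in 4 (up to 0.16). Of 7 CA1 markers Man1a, a mannosidase, was lower in trained and in untrained mice (−0.19 and −0.21). The lists of microglia (13 genes), choroid plexus (12), blood (4), CA3 (7), interneuron (11), general neuronal (9), thalamus (8), cortex (8) and striatum (6) markers held 0 calls in trained mice. Without FC4 mouse 3, and likewise without FC12 mouse 2, 1 striatum marker was called lower. In trained mice 1 of the 11 interneuron and 1 of the 9 general neuronal markers had a positive log2 fold change, with list medians of −0.04 and −0.02. Choroid plexus markers averaged 4.79 to 6.58 in FC12 and 5.06 to 6.74 in FC4 mice, and 8 of the 12 lay below the array median.

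Of 30 splicing regulators 5 were higher and 1 lower in FC12, against 3.41% and 2.08% of all genes. In CC12 4 were higher and 3 lower, against 3.42% and 3.27%, with 4 shared. Without FC4 mouse 3, 7 were higher in FC12. Tra2a, a splicing activator, rose by 0.21 ± 0.05 and the kinase Clk1, which phosphorylates SR proteins, by 0.21 ± 0.05, with smaller rises of the SR proteins Srsf10 (0.11), Srsf4 (0.10) and Srsf2 (0.09). Srsf2 lost its call without FC12 mouse 9 or FC4 mouse 4 (adjusted p up to 0.106), and Srsf10 was called in 6 and Srsf4 in 7 of the 18 fits without 1 mouse. Srsf5, of the same family, fell to 8.61 to 8.87 (median 8.71) in FC12 mice, against 8.79 to 9.00 (median 8.94) in FC4 mice. Of 29 chromatin modifiers Hdac4 (0.13), Ep300 (0.10) and Kdm5c (0.12) were higher and Hdac9 lower (−0.21), against 3.41% and 2.08% of all genes, and all 4 were called the same way in untrained mice. Without FC4 mouse 3, 5 were higher, and without FC12 mouse 2, 2 were lower. Hdac9, a histone deacetylase, had 8.44 to 8.61 (median 8.53) in FC12 mice, below all FC4 mice at 8.66 to 8.85 (median 8.70). Of 42 histone genes H1f2 and the replacement histone H3f3b (−0.16 ± 0.03) fell and H2ac4 rose (0.24 ± 0.07), and all 3 were called the same way in untrained mice, although H2ac4 was called in 11 of the 18 fits. Set against 3.41% and 2.08% of all genes, 1 of 42 histone genes was higher and 2 were lower, and without FC4 mouse 3 these counts were 4 and 3.

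MicroRNA genes were called 13 times among 307, 4 higher and 9 lower in FC12, close to the share of all genes called (5.49%), and 9 of the 13 were called in the same direction in untrained mice. The probe sets may read precursors or host transcripts and not the mature RNA. Mir219a-2 had 5.56 to 5.98 (median 5.67) in FC12 mice and 5.79 to 6.43 (median 5.98) in FC4 mice. Mir551b lay at 6.19 to 6.64 (median 6.49) in FC12 mice and 6.60 to 7.09 (median 6.76) in FC4 mice, so that its groups overlapped only narrowly. Mir218-2 (−0.33), Mir128-2 (−0.31), Mir107 (−0.22), Mirlet7c-2 (−0.21), Mir326 (−0.20), Mir9-3 (−0.16) and Mir9-2 (−0.13) were the other falls, and the last 2 genes give the same mature miR-9. Mir30b (0.33), Mir151 (0.26), Mir384 (0.24) and Mir20b (0.13) were the rises. Mirlet7c-2, Mir326, Mir9-3 and Mir20b were not called in untrained mice. Mir30b was called in 13, Mir20b in 4, Mir326 in 15 and Mir9-3 in 10 of the 18 fits that left out 1 mouse, and Mir107 lost its call without FC4 mouse 4 (adjusted p = 0.103).

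The mature sequences of the 9 microRNA genes that fell (1 arm of each) are shown with that of Mir384, a rise, so that their seeds can be compared. They are from RefSeq, 5′ to 3′, with the seed (bases 2 to 8) in capitals, and the seeds shown differ from one another.
miR-219a-5p: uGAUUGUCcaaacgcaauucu
miR-551b-3p: gCGACCCAuacuugguuucag
miR-218-5p: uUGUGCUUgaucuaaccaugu
miR-128-3p: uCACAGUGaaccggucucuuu
miR-107-3p: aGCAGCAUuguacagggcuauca
let-7c-5p: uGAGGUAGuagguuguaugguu
miR-326-3p: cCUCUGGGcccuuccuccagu
miR-9-5p (Mir9-2 and Mir9-3): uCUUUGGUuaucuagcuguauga
miR-384-5p: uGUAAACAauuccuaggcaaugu

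Calls in gene groups of basic cell function are likewise set against 3.41% of all genes called higher and 2.08% called lower in FC12. Of 70 ribosomal protein genes only Rpl15 was called (−0.09 ± 0.03, adjusted p = 0.0978), although only 7 of the 70 had a positive log2 fold change in trained mice, with a median of −0.05, while 27 had one in untrained mice, with a median of −0.01. Rpl15 was called in 2 of the 18 fits without 1 mouse. Of 79 nuclear genes of oxidative phosphorylation Ndufa12 was called (−0.11), and of 38 proteasome genes Psmd9 (0.14), and these were called in 4 and 5 of the 18 fits. Of 15 neuropeptide genes Penk (−0.19), the enkephalin precursor, and Adcyap1 (−0.19), which encodes PACAP, were lower, and neither was called in untrained mice (−0.09 and −0.21). Penk was called in 13 and Adcyap1 in 5 of the 18 fits. Of 59 small nucleolar RNAs Snord14e, Snord118 (0.20) and Snora2b (0.22) were higher and Snord42b (−0.14) lower, and of these Snord14e alone was called in untrained mice. Snora2b and Snord42b were called in 5 and 6 of the 18 fits. None of 12 reference genes was called in either comparison. Of 25 glutamate receptor and CaMKII genes 0 were called in trained mice, but 2 were lower without FC12 mouse 2. In untrained mice 2 were lower, against 3.27% of all genes.

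The time effect itself was then compared between trained and untrained mice. At the threshold 0 probe sets differed (limma interaction over 36 arrays), the smallest adjusted p was 0.813, and 1577 (4.44%) had an unadjusted p under 0.05. The median standard error of this difference was 0.0755, against 0.0496 for the contrast in trained mice. In simulated data with independent noise for each probe set, 13 of 100 differences of 0.2 and 71 of 100 of 0.5 were found. There were 13 false among 97 calls. Small differences would thus mostly be missed, and the shares found may be lower in real arrays, whose probe sets are not independent. Of the 1500 probe sets called in trained mice, 189 (12.6%) had an unadjusted p under 0.05 for the difference. They were chosen on FC12 against FC4, which is part of this difference, so their share can exceed 4.44% through the choice alone.

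The smallest p belonged to Snx24, a sorting nexin, which had 6.16 to 6.42 (median 6.35) in FC12 mice and 6.11 to 6.25 (median 6.15) in FC4 mice, but 6.12 to 6.35 (median 6.16) in CC12 mice and 6.10 to 6.51 (median 6.31) in CC4 mice. The difference of the time effects was 0.29 (95% confidence interval 0.17 to 0.42, unadjusted p = 3.45e-05, adjusted p = 0.813). Kcnn3, a calcium-activated potassium channel, changed little in trained mice (0.01) while its log2 fold change in untrained mice was 0.22, a difference of −0.20 (−0.30 to −0.11). The transcript 4930444G20Rik had −0.22 in trained mice and 0.40 in untrained mice, where it was called (adjusted p = 0.0568), and the difference was −0.62 (−0.96 to −0.28, unadjusted p = 7.23e-04, adjusted p = 0.999). The ribosomal genes Rps28 and Rpl37 each had a second, dimmer probe set that was called lower in trained mice (−0.12 and −0.10) and had log2 fold changes of 0.06 and 0.04 in untrained mice, with unadjusted p of 5.96e-04 and 6.20e-04 for the difference. Their brightest probe sets, those counted above, had −0.07 and −0.09 in trained mice and were not called. Rpl37 was called in 6 of the 18 fits. Tbx18, a transcription factor of mural and meningeal cells, had −0.27 in trained and 0.15 in untrained mice. Among genes called in both comparisons, Per2 and Mfsd2a had smaller rises in trained mice, by −0.19 each (−0.30 to −0.07 for Per2 and −0.29 to −0.08 for Mfsd2a), with unadjusted p of 0.00265 and 7.96e-04 and adjusted p of 0.999. Of the 10 largest called falls in untrained mice, Kcnj2, an inward rectifier channel (−0.54), and Ankrd34c (−0.42) were not called in trained mice, where they had −0.30 (adjusted p = 0.14) and −0.17. Without FC4 mouse 3, Kcnj2 was called there (−0.36 ± 0.09, adjusted p = 0.0375).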

How the data were processed

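Hippocampal RNA of each mouse was hybridised to a whole-transcript array, and the authors averaged 2 scans of each array and summarised probes with RMA. The deposited values are log2 signals, background corrected and quantile normalised by the authors, given to 2 decimals for 35556 probe sets with 0 missing. A quantile normalisation sets shifts of the whole array to near 0, so changes are relative to the array.

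Groups came from the array titles. PC1 over the 72 arrays was found after centring each probe set and subtracted, since the study also removes its PC1. The study reports larger shares of variance for its leading components than those found here, so its PC1 may differ. The 18 arrays of each contrast were fitted with limma 3.58.1 in R 4.3.3. Principal components, exact permutation tests and plots used Python 3.11.15 with numpy 2.4.6, scipy 1.17.1, pandas 2.3.3 and matplotlib 3.10.9. The fit was tested on simulated data with independent noise for each probe set, which real arrays need not match. There 39 of 100 changes of 0.2 and 82 of 100 changes of 0.5 were found, with 10 false of 131 calls. The number of arrays limits the precision.

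Of the probe sets, 21218 carry 1 gene symbol, 1881 several and 12457 none. Gene lists took the brightest probe set of a gene and named genes that with the lowest p. Named were the 15 largest called rises and falls in trained and 10 in untrained mice, the smallest p for the difference, up to 5 called members per list and direction, and the clock genes. The members of the comparison and the 36 lists were chosen with earlier results of these data known, and 42 listed symbols were not matched. Other list members, and the mouse that stood apart among FC4 mice, were named after their values were seen. Mice of 1 group are separate animals.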

Additional observations from a re-analysis of the deposited data

Results flagged for a closer look

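Of 318 combinations of a gene or component with the FC12 or FC4 group, 25 held a mouse whose gap to its nearest neighbour exceeded Dixon's critical value for 9 samples, where chance gives about 1 in 20. The FC4 group held most of them, and mouse 3 was the mouse concerned in 14.

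In FC4 mouse 3, the value lay above the rest of its group for Arc (8.16, group median 7.70), Banp (8.55, median 8.12), Dnase1l2 (6.38, median 5.82), Dusp6 (8.32, median 8.09), Ep300 (9.76, median 9.68), Hspa5 (10.31, median 10.04), Kdm5c (8.31, median 8.12), Noxred1 (5.57, median 5.00), Sdf2l1 (8.21, median 7.88), Tnfrsf25 (8.04, median 7.49), Manf (6.84, median 6.60) and Syvn1 (8.50, median 8.26). It lay below the rest for S100a16 (8.80, median 8.98) and Rbm3 (10.32, median 10.58). Apart from Rbm3, which was not called, each of these genes deviated in the direction in which FC12 mice differed.

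Other FC4 mice were set apart for Ebp (mouse 2, 7.84), Hlf (mouse 1, 9.72), Prox1 (mouse 8, 9.73), Npas4 (mouse 6, 7.12) and the meningeal markers Igf2 (mouse 8, 7.46) and Dcn (mouse 8, 9.24). Among FC12 mice the values were 8.79 for Hdac4 (mouse 8), 7.48 for Per2 (mouse 2), 5.24 for Pla2g4e (mouse 9), 8.08 for Pdia6 (mouse 3) and −61.06 for the PC1 score of mouse 2.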

How the results depend on the processing

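The 1500 calls in FC12 against FC4 became 0 with an equal variance test and local false discovery rates, where 633 of the 1782 calls in CC12 against CC4 were left and so 0 of the 674 shared calls; the fitted null distribution had an SD of 1.39 in trained and 1.1 in untrained mice. The study names local false discovery rates, but its settings may differ from the null fitted here. With the replicate number as a block, 927 were called in trained mice (562 higher, 365 lower) and 410 were shared. The study describes the 9 animals of each group as coming from 9 independent experiments, so mice of different groups may share an experiment. The labels do not say whether equal numbers mark the same experiment, and the main fits held no block. Same-numbered FC12 and FC4 mice had a median correlation of 0.012, against 0.00535 for other numbers. Of these pairs 1 of 9 was over 0.1, and 2 of 9 correlated best with their own number. For CC12 and CC4 the median was 0.0504, against −0.00704 for other numbers (2 of 9 over 0.1). For FC12 and CC12 it was 0.0402, against 0.00143 (1 of 9). For FC4 and CC4 it was 0.0889, against −0.0102 (3 of 9, highest 0.376, 4 of 9 best with their own number). Requiring an adjusted p under 0.05 gave 821 calls in trained mice, 1143 in untrained mice and 409 shared, and under 0.01 it gave 266, 485 and 150. Removing 2 components gave 2862 calls in untrained mice, and fitting all 8 groups together gave 2810 there and 1064 shared; the cause was not tested.

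Leaving out 1 mouse at a time gave 1081 (without FC4 mouse 6) to 1890 (without FC4 mouse 3) calls in trained mice, 1429 to 2254 in untrained mice, 541 to 809 shared, and −12.28 to −10.3 for the difference of the PC3 scores. Of the 1500 calls 853 (56.9%) held in all 18 fits, and of the 674 shared calls 496. The difference of the 2 time effects gave 0 calls under all 16 other settings and 0 to 1 without single mice, the 1 being Snx24 without CC4 mouse 9 (0.32, adjusted p = 0.09).

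Of the 123 named genes 102 were called, with 0 reversed, and 79 held in every fit without 1 mouse. The block lost 35 of these calls and a PC1 recomputed after dropping the arrays far out on it (chosen after seeing the data) lost 20, while 63 were called under every alternative but local false discovery rates. Depth is not defined for arrays, and dim probe sets near background limit small changes.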
